A study of Mus musculus with 11 samples.

Results

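The 34 genes described here serve fatty acid oxidation and the transcriptional programme of PPAR-alpha in mouse liver. They were listed by name: the receptor itself (Ppara), genes for uptake, binding and activation of fatty acids, the carnitine shuttle, mitochondrial and peroxisomal beta-oxidation, acyl-CoA thioesterases, ketone body metabolism, and other PPAR-alpha targets. All 34 were found on the array through the RefSeq accession of their probes, out of 22911 genes with a name. They were covered by 45 of 56605 probes, with 1 probe for 23 genes and 2 probes for the other 11. Each of the 45 probes was well above background on all 11 arrays, so no member was lost to the filter on dim probes. A gene is represented below by its brighter probe.

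Male C57Bl6/J mice were injected at 8 weeks of age with AAV8, a serotype of adeno-associated virus that enters liver cells readily, and liver RNA was taken after 5 days. The control group received 6e+11 viral genomes of a vector for GFP. The NICD1 group received 3e+11 of a vector for the intracellular domain of Notch1 with 3e+11 of the GFP vector, and the NICD2 group the same with the intracellular domain of Notch2. Mice of the NICD1&2 group were given both NICD vectors at 3e+11 each, without the GFP vector. The absence of GFP, the larger total of NICD vector and the presence of both domains thus cannot be told apart in this group. All vectors carried the CMV promoter, which is active in many cell types, in otherwise wild-type mice. There were 3 arrays each for GFP, NICD1 and NICD2 and 2 for NICD1&2. The labels do not say that each array is a separate mouse, so p-values measure only the spread between these samples. Levels are log2 signal less the array's 75th percentile, called log2 signal below, and differences are log2 fold changes from limma with a standard error (SE) and a Benjamini-Hochberg adjusted p over 36055 probes.

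Notch receptors release their intracellular domain, NICD, on contact with a ligand on a neighbouring cell, and NICD then acts in the nucleus with the DNA-binding protein RBPJ. PPAR-alpha is a nuclear receptor that fatty acids activate, and in fasting hepatocytes it raises the genes that import, activate and burn them. Long-chain fatty acids are joined to coenzyme A, carried into the mitochondrion as carnitine esters, and shortened there by rounds of beta-oxidation. Peroxisomes shorten very long chains, thioesterases split acyl-CoA back to the free acid, and the liver exports part of the product as ketone bodies. PPAR-alpha binds, together with RXR, to direct repeats of AGGTCA with 1 base between them.

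RefSeq promoter windows (GRCm38.p6, 250 bases before to 50 after the start) were at hand for 29 of the 34 members, in 32 windows. The genes with no window were Acaa2, Angptl4, Crat, Decr1 and Vnn1. The full repeat AGGTCANAGGTCA, searched on both strands, was in 0 of the 32 windows and in 0.0396% of all 32851 windows. With 1 free base in each part, AGGNCANAGGNCA, it was in 1 member window, that of Fabp1, or 3.13%, against 0.381% of all windows. A single AGGTCA, which also counts where it lies within a repeat, was in 10 member windows (31.3%, against 16.3% of all), those of Acadm, Acadvl, Acot3, Acot4, Cd36, Cpt1a, Echs1, Fabp1 and Plin2. The core letters of the RBPJ site, TGGGAA, were in 11 member windows (34.4%, against 25.6% of all), those of Acaa1a, Acadvl, Acot3, Acsl1, Bdh1, Cd36, Decr2, Pex11a, Plin2 and Slc25a20. In both of these counts Acot3 enters more than once, through overlapping windows that hold the same match. These are matches of letters, and the factor's binding was not measured. The windows of Acot1 and Pex11a are shown because these were the members with the highest log2 fold changes against GFP with both domains, and that of Fabp1 because it alone held the looser repeat. Capitals mark the matches, at -67 and -9 from the start in Fabp1 and at -224 in Pex11a, while Acot1 has no match to any of the 4 searches. Coordinates are those of the windows, with Acot1 and Fabp1 on the plus strand and Pex11a on the minus strand.
Acot1 (chr12:84009252-84009551): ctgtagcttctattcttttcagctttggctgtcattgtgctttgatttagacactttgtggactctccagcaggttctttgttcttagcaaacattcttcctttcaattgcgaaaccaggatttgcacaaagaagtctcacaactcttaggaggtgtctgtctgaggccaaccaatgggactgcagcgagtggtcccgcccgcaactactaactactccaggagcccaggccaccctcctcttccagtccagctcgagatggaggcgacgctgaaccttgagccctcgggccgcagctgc
Pex11a (chr7:79743082-79743381): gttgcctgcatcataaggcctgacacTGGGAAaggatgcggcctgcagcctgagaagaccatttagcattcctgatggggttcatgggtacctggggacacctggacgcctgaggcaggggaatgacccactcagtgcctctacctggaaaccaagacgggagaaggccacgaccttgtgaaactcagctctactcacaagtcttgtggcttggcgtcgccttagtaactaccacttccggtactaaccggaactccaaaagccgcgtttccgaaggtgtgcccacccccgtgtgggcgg
Fabp1 (chr6:71199629-71199928): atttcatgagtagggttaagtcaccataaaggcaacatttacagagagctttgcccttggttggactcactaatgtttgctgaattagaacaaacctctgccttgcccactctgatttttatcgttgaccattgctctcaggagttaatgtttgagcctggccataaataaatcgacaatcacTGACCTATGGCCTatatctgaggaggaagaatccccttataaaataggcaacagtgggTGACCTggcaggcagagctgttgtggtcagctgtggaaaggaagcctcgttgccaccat

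The RNA was that of liver in all groups. All 6 hepatocyte markers, among them Alb and Apoa1, were well above background on all arrays. Their summed log2 level was 11.16 to 11.30 with GFP, 11.04 to 11.29 with NICD1, 11.15 to 11.38 with NICD2 and 11.31 to 11.37 with NICD1&2, so the last lay just above GFP. The bile duct markers (Krt19, Krt7, Epcam, Spp1, Sox9), 4 of 5 of them well above background on all arrays, had a summed log2 level of 2.79 to 3.31 with GFP, 4.49 to 4.94 with NICD1, 4.49 to 4.93 with NICD2 and 5.02 to 5.33 with NICD1&2. The sum moved with Spp1, which ran from 2.63 to 3.20 with GFP and from 4.43 to 5.28 on the other arrays. The duct keratin Krt19 read -2.04, -2.41 and -2.06 with GFP, -2.06, -2.15 and -2.10 with NICD1, -2.34, -2.32 and -1.60 with NICD2 and -2.19 and -1.57 with NICD1&2. Krt19 and Krt7 overlapped between GFP and each other group. Epcam was above all GFP arrays on every NICD1 and NICD1&2 array, and Sox9 on every NICD2 and NICD1&2 array. All 5 duct markers had a higher mean than GFP in each group, with medians of 0.44, 0.48 and 0.74, and Spp1 was called with NICD2 and with both domains (adjusted p = 0.0276 and 0.0114). Kupffer cell and macrophage markers (Clec4f, Adgre1, Cd68, Marco, Cd5l), all 5 well above background on all arrays, summed to 6.04 to 6.66 with GFP, 5.99 to 6.18 with NICD1, 6.11 to 6.31 with NICD2 and 6.47 to 6.69 with NICD1&2. The NICD1&2 arrays thus overlapped with GFP in these markers and lay above both single domains, and the sum of the 5 lymphocyte markers, 4 of them well above background on all arrays, was placed likewise, at 1.49 to 1.72, 1.40 to 1.43, 1.42 to 1.52 and 1.65 to 1.71. Adipocyte markers, 3 of 7 of them detected on all arrays, summed to 2.43 to 2.62 with GFP, 2.46 to 2.48 with NICD1, 2.18 to 2.70 with NICD2 and 2.50 to 2.92 with NICD1&2, and Plin1 was well above background on 0 arrays. Of the muscle markers, Ckm, Mb and Myh4 were well above background on 0 arrays. The stellate markers summed to 3.08 to 3.60 with GFP and 3.32 to 3.77 with NICD1&2. For endothelial markers these sums were 5.87 to 5.99 and 5.87 to 6.16, and for red cell markers 8.01 to 8.19 and 7.95 to 8.81. The part of these other cell types in the results below was not tested. In whole liver, fewer cells of a type and less RNA per cell cannot be told apart. The probes of Notch1 with NICD1 and of Notch2 with NICD2 differed from GFP by 0.22 (SE 0.28) and 0.21 (SE 0.10), and whether they lie in the part that the vectors carry is not known, so they do not check the vectors. Among all spots other than the controls 57.0% to 62.0% were well above background, 0 were saturated, and arrays correlated with each other at 0.973 to 0.992.

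The level of the whole group varied between arrays of 1 treatment. On the array NICD2 2, 33 of the 34 members lay below their own mean over the 11 arrays and 17 were at their lowest value. On NICD1 2, in contrast, 27 members lay above their mean, and on GFP 3 only 3 did. The NICD1&2 arrays stood at the upper end, with 30 members above their mean on the first and 32 on the second, where 16 members reached their highest value. The median deviation from the mean was 0.12 and 0.22 on these 2 arrays, between -0.10 and 0.01 with GFP, between -0.12 and 0.07 with NICD1 and between -0.18 and 0.07 with NICD2. All probes together moved less, with array medians from -0.05 to 0.14, the highest on NICD1&2 2. The median pooled SD of the members within groups was 0.14 against 0.22 for all probes tested and 0.17 for those well above background on every array.

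**Figure D1:**
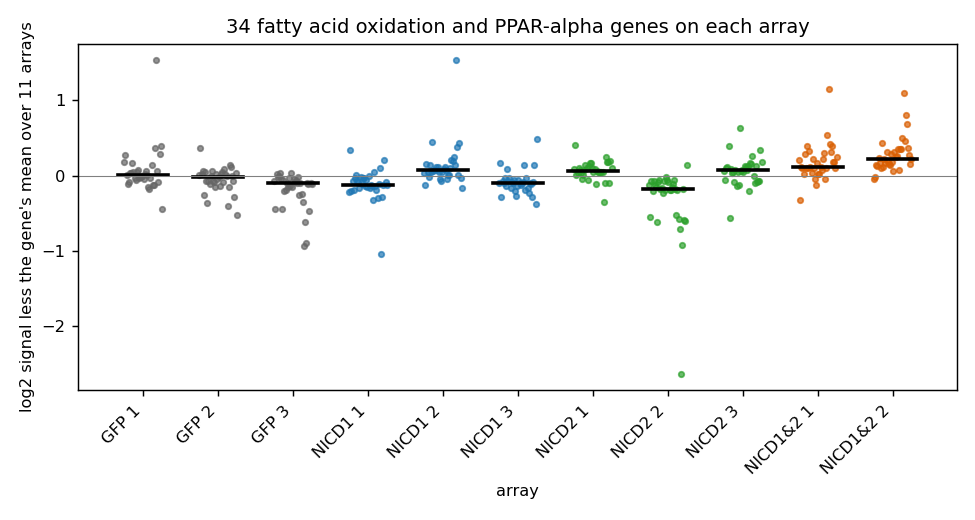
Each point is 1 of the 34 members on 1 array, as its log2 signal less the mean of that gene over the 11 arrays, and the bar is the median of the array. The bars of the 2 NICD1&2 arrays are the highest (0.12 and 0.22), and that of NICD2 2 is the lowest (-0.18).

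With NICD1 alone, the oxidation genes differed little on average from the GFP livers. Of the 34 members 18 were higher and 16 lower, with a median log2 fold change of 0.0086, and the median of all probes was 0.01. The changes ran from -0.28 for Plin2 to 0.42 for Angptl4. At an adjusted p under 0.05 limma called 0 members, where 0.00832% of all probes were called, and the lowest adjusted p of a member was 0.897. At an unadjusted p under 0.05 there was 1 member, Angptl4, against 5.48% of all probes. The definition of the study, which asks for a P under 0.15 before adjustment together with a fold change beyond 1.8, was met by 0 members and by 2.22% of all probes. In 0 members did all NICD1 arrays exceed all GFP arrays (6.98% of probes did so), and in 1, Echs1, all lay below (5.44% of probes).

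With NICD2 alone the median was 0.01, again close to that of all probes at 0.02, and 21 of the 34 members were higher. Changes ran from -1.01 for Acot3 to 0.50 for Angptl4. No member was called (0.0527% of all probes were), with a lowest adjusted p of 0.625, and 0 met the definition of the study (1.98% of probes did). At an unadjusted p under 0.05 there was again 1 member, Angptl4, against 6.79% of probes. Angptl4 was also the 1 member whose NICD2 arrays all lay above all GFP arrays, which 7.63% of probes did. The medians of both single groups were small and of either sign when 1 array was left out, from -0.06 without NICD1 2 to 0.05 without NICD1 1, and from -0.03 without NICD2 3 to 0.10 without NICD2 2.

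With both domains, 33 of the 34 members were higher than with GFP, where 65.0% of all probes were, the exception being Cd36, and the median log2 fold change was 0.23. These are the values of the brighter probes. Of the 11 dimmer probes 7 were higher, with a median of 0.06, those of Cpt2, Echs1, Hadhb and Plin2 being lower. All probes shared part of the rise, with a median of 0.12, and 29 members lay above it by their brighter probes. The median of the dimmer probes lay below it. For the brighter probes, the median less that of all probes was 0.12, and it was 0.06 without GFP 3, 0.17 without GFP 1 and 0.014 with no filter on dim probes, which changes the probes compared and not the members. The median itself was 0.15 without NICD1&2 2. Both NICD1&2 arrays exceeded all GFP arrays for 23 members, or 67.6%, where 24.0% of all probes and 25.2% of those well above background on all arrays did so. Still, 0 members were called at an adjusted p under 0.05 (0.0915% of probes were), and the lowest adjusted p was 0.0994, for Acot1. Acot1 was also the 1 member that met the definition of the study, which 6.22% of probes met. At an unadjusted p under 0.05 there were 8 members, all higher: Acot1, Pex11a, Angptl4, Crat, Acadl, Bdh1, Eci2 and Acaa2. This was 23.5% of the members against 14.8% of all probes. The count was 5 without NICD1&2 1 and 4 without NICD1&2 2, where the lone remaining array is assumed to vary like those of the other groups. Acot1 and Pex11a both met the definition without GFP 1.

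How far the group as a whole stood above GFP with both domains depended on how arrays were scaled to each other. Under quantile normalization 22 members were higher, with a median of 0.05 against 0.01 for all probes, and 7 were above GFP on every array (20.6%, against 17.2% of probes). With normexp background correction and quantile normalization 24 were higher, with a median of 0.08 against 0.0031 for all probes, and 9 were above on every array (26.5%, against 17.0%). With the 75th percentile taken only over probes detected on all arrays 30 were higher, with a median of 0.16 against 0.04, and 13 were above on every array (38.2%, against 17.6%). The arrays were run on 2 slides that each held all 4 groups. Slide 1 held 2 GFP, 1 NICD1, 2 NICD2 and 1 NICD1&2 arrays, and slide 2 held 1, 2, 1 and 1, so the values within slide 2 with both domains are of 1 array against 1, GFP 3, and have no replicate. The median of the members with both domains was 0.14 within slide 1 and 0.35 within slide 2, and 28 of the 34 had the same sign on both. With NICD1 the medians were -0.07 and 0.07 on the 2 slides, and with NICD2 they were -0.05 and 0.19.

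**Figure D2:**
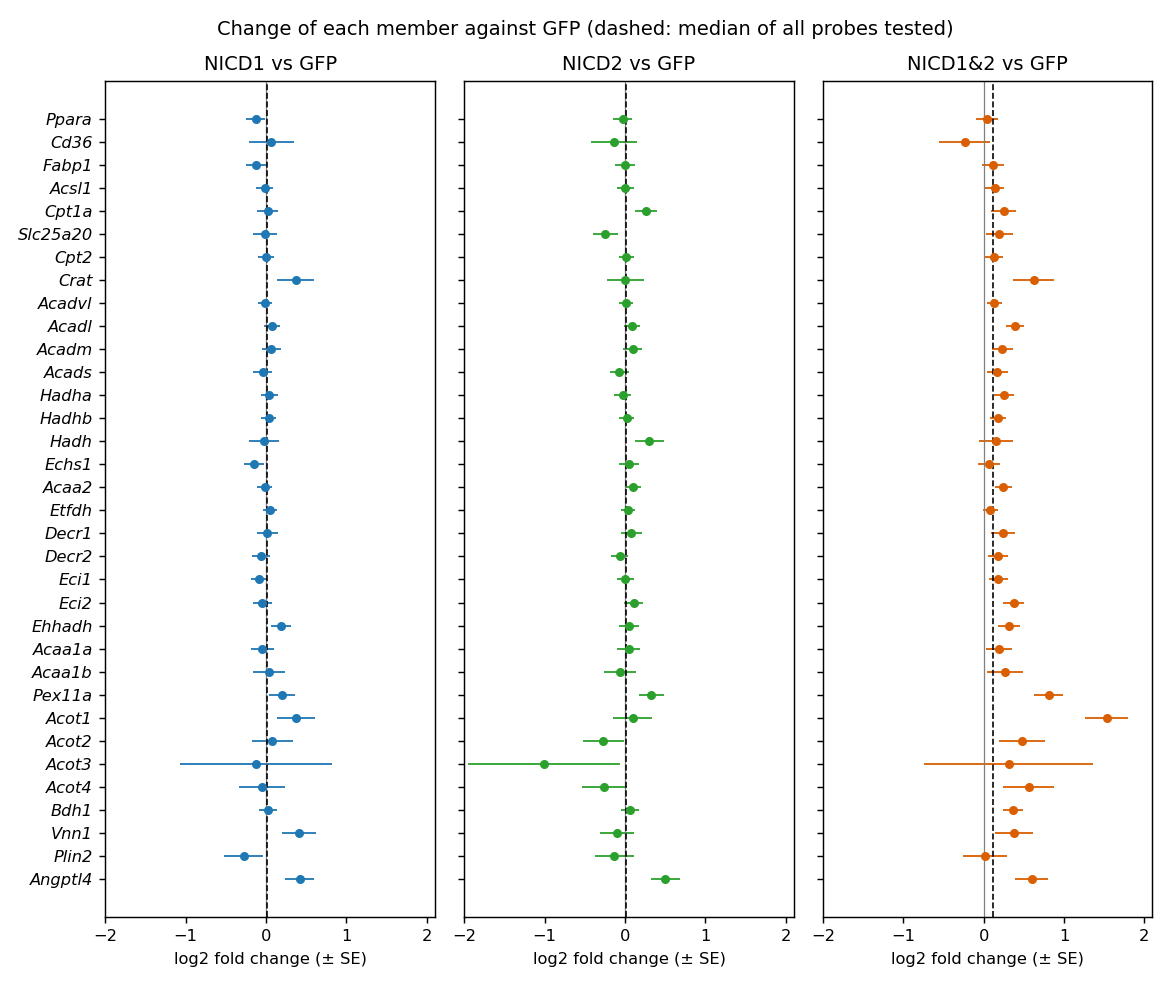
Log2 fold change of each of the 34 members against GFP with NICD1, NICD2 and NICD1&2, with the SE of the limma fit as bars and the median of all probes as a dashed line. The NICD1 and NICD2 values scatter around the line (members' medians 0.0086 and 0.01), whereas with NICD1&2 all but Cd36 are above 0 and 29 are above the line at 0.12.

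The clearest member was Acot1, a cytosolic thioesterase that splits long-chain acyl-CoA and is a classic PPAR-alpha target of rodent liver. Its log2 signal was 4.38, 4.36 and 3.57 on the GFP arrays, 4.39, 4.75 and 4.28 with NICD1, 4.16, 3.93 and 4.50 with NICD2, and 5.67 and 5.60 with NICD1&2. Both NICD1&2 arrays were thus above each of the other 9, and GFP 3 was the lowest. Against GFP the difference with both domains was 1.53, a fold change of 2.89 (SE 0.27, adjusted p = 0.0994, p = 0.1 in an exact permutation test, two-sided, which is the lowest value that 2 or 3 arrays against 3 can reach). Over 16 alternatives it lay between 1.27 and 1.67 with an adjusted p from 0.0369 to 0.434, and it was called with normexp (as were 0.982% of all probes) and when only probes well above background on all arrays were tested (0.395%). Within slide 1 it was 1.30 and within slide 2 it was 2.03. With NICD1 alone it was 0.37 (SE 0.24, adjusted p = 0.914), which became 0.11 without GFP 3, and with NICD2 alone 0.10. Against NICD1 the NICD1&2 group was higher by 1.16 (adjusted p = 0.327) and against NICD2 by 1.44 (adjusted p = 0.515). The interaction, the difference with both domains less the sum of the differences with each alone, was 1.06 (SE 0.36, adjusted p = 0.690).

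The other thioesterases of this family, which have closely related sequences, were Acot2 of the mitochondrion and Acot3 and Acot4 of the peroxisome. Whether their probes also bind RNA of their relatives was not tested. Acot2 read 0.01, -0.22 and -0.98 with GFP, -0.27, -0.23 and -0.46 with NICD1, -0.46, -1.08 and -0.46 with NICD2, and 0.06 and 0.10 with NICD1&2. Acot4 read 1.58, 1.52 and 1.43 with GFP, 1.24, 1.91 and 1.24 with NICD1, 1.71, 0.61 and 1.44 with NICD2, and 1.92 and 2.22 with NICD1&2. Both NICD1&2 arrays were the highest 2 of the 11 in each case, by a small margin over the next. The other probe of Acot4 differed in this, with NICD1&2 at -0.03 and 0.06 and NICD1 2 the highest at 0.18, and it gave a difference of 0.33 with both domains. The differences from GFP with both domains were 0.47 for Acot2 (SE 0.29, adjusted p = 0.438) and 0.56 for Acot4 (SE 0.32, adjusted p = 0.416).
Acot3 was the most variable member. It read 1.35, -0.07 and -1.08 with GFP, -1.23, 1.35 and -0.31 with NICD1, 0.06, -2.83 and -0.06 with NICD2, and 0.13 and 0.62 with NICD1&2. Both NICD1&2 arrays lay above all NICD2 arrays, by a narrow gap between 0.06 and 0.13, and every other pair of groups overlapped. NICD2 2 was the lowest array for Acot2, Acot3 and Acot4 alike. The NICD2 differences from GFP, at -0.27, -1.01 and -0.25 for these 3, were -0.06, -0.06 and 0.07 without it, and those of Acot2 and Acot3 were -0.56 and -1.58 without GFP 3. The adjusted p of the 3 was between 0.931 and 0.947 in that comparison.

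Among the peroxisomal genes, Pex11a, a membrane protein that takes part in dividing peroxisomes, differed most. It read 6.36, 6.08 and 6.13 with GFP, 6.18, 6.67 and 6.31 with NICD1, 6.53, 6.29 and 6.73 with NICD2, and 7.01 and 6.98 with NICD1&2. The NICD1&2 arrays were again the highest 2, while NICD1 and NICD2 overlapped with GFP. The differences were 0.20 with NICD1, 0.33 with NICD2 and 0.81 with both (SE 0.18, adjusted p = 0.148), the last between 0.55 and 0.89 over the alternatives. Within slides the last was 0.80 and 0.85. Ehhadh, the bifunctional enzyme of peroxisomal beta-oxidation, had differences of 0.19, 0.05 and 0.31 in these groups. The peroxisomal thiolases Acaa1a and Acaa1b, a pair with closely related sequences, had 0.19 and 0.26 with both domains, and the other probe of Acaa1a gave 0.06. For Ehhadh, Acaa1a and Acaa1b the NICD1&2 arrays overlapped with GFP.

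**Figure D3:**
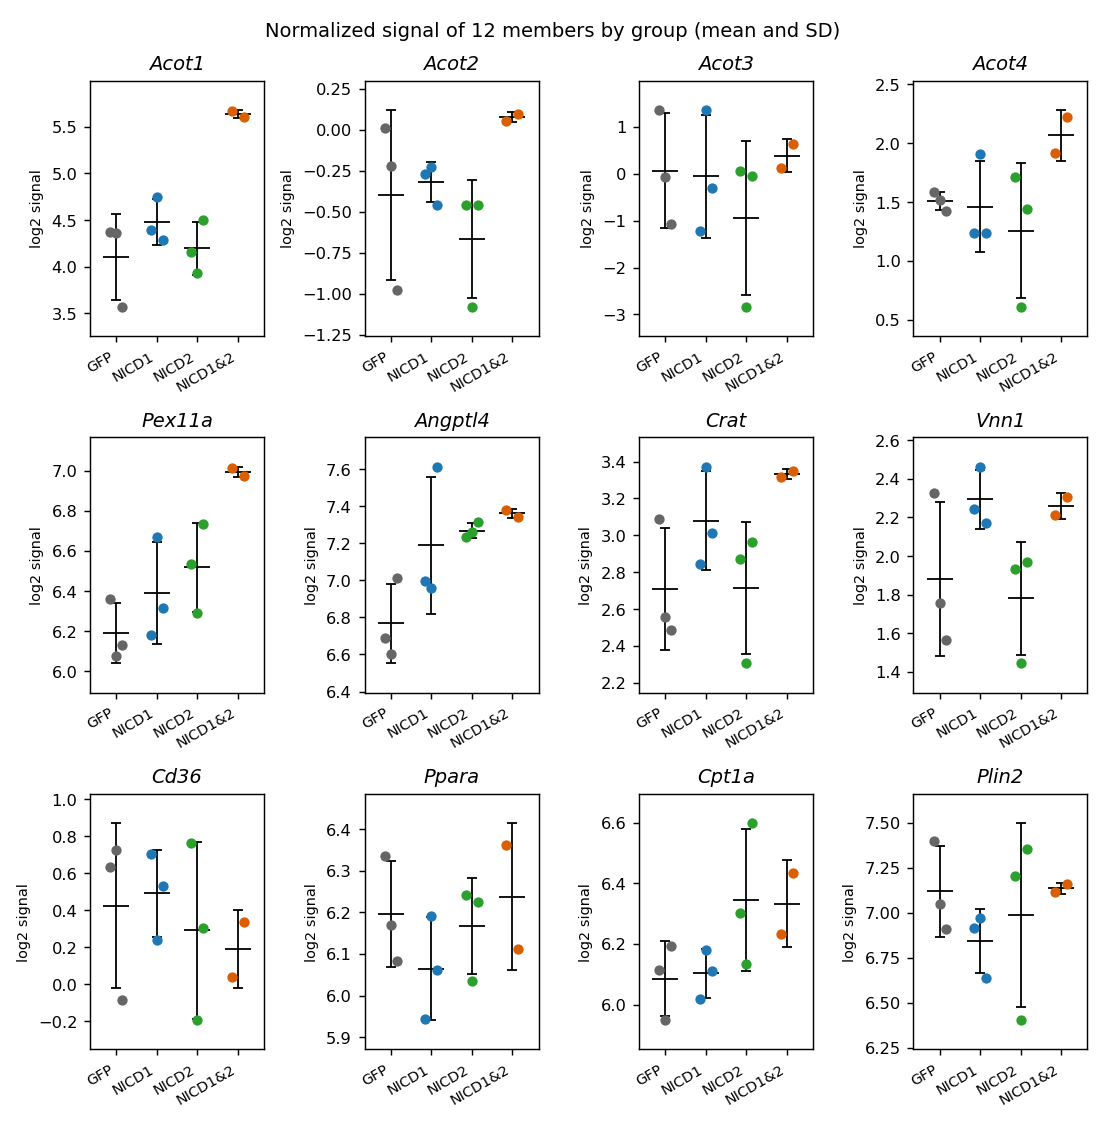
Log2 signal of 12 members by group, each point 1 array, with the mean and SD of the group. The 2 NICD1&2 arrays of Acot1 (5.67 and 5.60) and Pex11a (7.01 and 6.98) lie above all 9 other arrays, whereas those of Cpt1a, Cd36, Vnn1 and Plin2 lie among them. For Ppara 1 of them is the highest of the 11 arrays (6.36) and the other lies among the rest (6.11).

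By its brighter probe, the levels of the receptor gene Ppara overlapped between all groups. It read 6.34, 6.17 and 6.08 with GFP, 5.94, 6.19 and 6.06 with NICD1, 6.24, 6.04 and 6.22 with NICD2, and 6.36 and 6.11 with NICD1&2, so that NICD1&2 1 was the highest array, just above GFP 1. The differences from GFP were -0.13 with NICD1, -0.03 with NICD2 and 0.04 with both (SE 0.12, 0.12 and 0.13), with a 95% interval from -0.26 to 0.35 for the last. The difference with NICD1 was -0.06 without GFP 1 and -0.19 without NICD1 2. The direction of that with both domains was not fixed, being -0.13 under quantile normalization. The other probe of Ppara read 4.56, 4.40 and 4.48 with GFP, 4.23, 4.51 and 4.18 with NICD1, 4.67, 4.35 and 4.55 with NICD2, and 4.61 and 4.64 with NICD1&2. Here both NICD1&2 arrays lay above all GFP and NICD1 arrays, by a difference of 0.15 from GFP, while NICD2 1 was the highest.

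Genes of uptake and activation differed from GFP by 0.24 or less on the log2 scale by their brighter probes. Cd36, a membrane transporter of fatty acids, read 0.63, 0.73 and -0.09 with GFP, 0.71, 0.24 and 0.53 with NICD1, 0.76, -0.19 and 0.30 with NICD2, and 0.04 and 0.34 with NICD1&2. It was the 1 member that was lower with both domains, at -0.24 (SE 0.32, adjusted p = 0.717), with overlap of the groups, and it was -0.49 without GFP 3 and -0.08 without GFP 2. Fabp1, the main fatty acid binding protein of the hepatocyte, and Acsl1, which joins long-chain fatty acids to coenzyme A, were higher by 0.12 and 0.14 with both domains. Their NICD1&2 arrays were above the GFP arrays, at 9.05 and 9.07 against at most 8.95 for Fabp1, and at 8.01 and 8.04 against at most 7.97 for Acsl1. The other probe of Acsl1 gave 0.32, at 5.58 and 5.43 against at most 5.22. Under each of the 3 other scalings 0 of these uptake genes stood above GFP on both arrays by the brighter probe. With 1 domain the differences were -0.13 and -0.02 (NICD1) and -0.0012 and 0.0047 (NICD2).

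In the carnitine shuttle, all 4 genes were higher on both NICD1&2 arrays than on any GFP array, as 24.0% of all probes were, with differences of 0.13 to 0.62. Under quantile normalization 1 of the 4 was, with normexp 3 and with the percentile over probes detected on all arrays 2. Cpt1a, the rate-limiting entry enzyme that malonyl-CoA inhibits, read 6.11, 5.95 and 6.19 with GFP, 6.02, 6.18 and 6.11 with NICD1, 6.30, 6.14 and 6.60 with NICD2, and 6.23 and 6.43 with NICD1&2. Its differences were 0.02, 0.26 and 0.25 (SE 0.14, 0.14 and 0.15). NICD2 overlapped with GFP. Single arrays weighed on these values. That with NICD2 was 0.13 without NICD2 3 and 0.36 without NICD2 2, and that with both domains was 0.15 without NICD1&2 2 and 0.35 without NICD1&2 1. Over 16 alternatives the latter lay between 0.05 and 0.35.
Crat, which moves short acyl groups onto carnitine, read 3.09, 2.55 and 2.48 with GFP, 2.85, 3.37 and 3.01 with NICD1, 2.87, 2.31 and 2.96 with NICD2, and 3.31 and 3.35 with NICD1&2. Its highest value was that of NICD1 2. The difference with both domains was 0.62 (SE 0.25, adjusted p = 0.313), but the other probe of Crat gave 0.03. The carrier Slc25a20 and the inner enzyme Cpt2 had 0.19 and 0.13, and the other probe of Cpt2 gave -0.11. With NICD2 alone Slc25a20 was at -0.25, with NICD2 3 at 2.12 and all other arrays at 2.56 or above.

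The 10 enzymes of mitochondrial beta-oxidation were all higher with both domains, by 0.07 to 0.39 with a median of 0.17, and for 7 of them both NICD1&2 arrays exceeded all GFP arrays, against 24.0% of all probes. This count was 0 under quantile normalization, 0 with normexp and 4 with the percentile over probes detected on all arrays. With NICD1 5 of the 10 were higher (median 0.01) and with NICD2 8 were (median 0.05). The acyl-CoA dehydrogenases start each round on chains of different length. The long-chain enzyme Acadl had the highest value, reading 5.14, 5.06 and 4.97 with GFP and 5.50 and 5.39 with NICD1&2, a difference of 0.39 (SE 0.11, adjusted p = 0.218). Acadvl, Acadm and Acads, for very long, medium and short chains, had 0.13, 0.23 and 0.17. The trifunctional protein genes Hadha and Hadhb had 0.25 and 0.18, the other probe of Hadhb -0.06, and the thiolase gene Acaa2 had 0.24 (SE 0.11, adjusted p = 0.336). Etfdh, which passes the electrons to the respiratory chain, had 0.08.
Echs1, the short-chain hydratase, read 6.57, 6.61 and 6.63 with GFP, 6.54, 6.52 and 6.32 with NICD1, 6.75, 6.57 and 6.65 with NICD2, and 6.47 and 6.87 with NICD1&2. It was the 1 member with every NICD1 array below every GFP array, at -0.15 (SE 0.12, adjusted p = 0.922), by a narrow gap between 6.54 and 6.57. The NICD1 difference of Echs1 was -0.08 without NICD1 3. With both domains its arrays lay on either side of GFP, at 0.07, and its other probe gave -0.17. Hadh, the short-chain dehydrogenase, read 5.47, 5.35 and 5.35 with GFP, 5.35, 5.45 and 5.29 with NICD1, 5.66, 5.30 and 6.13 with NICD2, and 5.45 and 5.63 with NICD1&2. NICD2 3 was the highest array and NICD2 1 the next, while NICD2 2 lay below all GFP arrays. The NICD2 difference of 0.30 (SE 0.18, adjusted p = 0.847) was 0.09 without NICD2 3 and 0.50 without NICD2 2.

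The auxiliary enzymes that handle double bonds of unsaturated fatty acids, Decr1, Decr2, Eci1 and Eci2, were all higher with both domains, by 0.24, 0.18, 0.18 and 0.37, each on both arrays above every GFP array, where 24.0% of all probes were. For Decr1 the margin was narrow, with 7.79 against 7.78. Under quantile normalization and with normexp 1 of the 4 stood apart in this way, and with the percentile over probes detected on all arrays 2 did. Eci2 read 7.19, 7.25 and 7.33 with GFP and 7.56 and 7.70 with NICD1&2 (SE of the difference 0.13, adjusted p = 0.267). With NICD1 3 of the 4 were lower, with a median of -0.05, and with NICD2 3 were higher, with a median of 0.04. Bdh1, which makes the ketone body beta-hydroxybutyrate, read 6.80, 6.82 and 6.78 with GFP and 7.07 and 7.26 with NICD1&2, a difference of 0.37 (SE 0.13, adjusted p = 0.262). The array NICD2 1, at 7.07, was as high as the lower of these, and with 1 domain the differences were 0.02 and 0.07.

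Of the remaining PPAR-alpha targets, Angptl4, a secreted inhibitor of lipoprotein lipase, was higher by 0.42 to 0.59 in each group. It read 6.69, 6.60 and 7.01 with GFP, 7.0, 6.96 and 7.61 with NICD1, 7.23, 7.26 and 7.31 with NICD2, and 7.38 and 7.34 with NICD1&2. The GFP and NICD1 arrays overlapped through GFP 3, while the NICD2 and NICD1&2 arrays lay above all GFP arrays. The differences were 0.42 with NICD1 (adjusted p = 0.897), 0.50 with NICD2 (adjusted p = 0.625) and 0.59 with both (SE 0.18, 0.18 and 0.20, adjusted p of the last 0.260). They share the GFP arrays and are not independent of each other. The first was 0.21 without NICD1 3.
Vnn1, a pantetheinase, read 2.33, 1.76 and 1.56 with GFP, 2.25, 2.46 and 2.17 with NICD1, 1.93, 1.44 and 1.97 with NICD2, and 2.21 and 2.31 with NICD1&2. The wide GFP group overlapped with each of the others, with differences of 0.41, -0.10 and 0.38 (SE 0.21, 0.21 and 0.24), the first of which was 0.25 without GFP 3 and 0.63 without GFP 1. Plin2, the main lipid droplet coat protein of the hepatocyte, read 7.40, 7.05 and 6.91 with GFP, 6.92, 6.97 and 6.64 with NICD1, 7.20, 6.40 and 7.35 with NICD2, and 7.12 and 7.16 with NICD1&2. Its differences were -0.28, -0.13 and 0.02. The first was -0.13 without GFP 1 and -0.38 without GFP 3, and the last was -0.16 under quantile normalization and -0.07 with its other probe.

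Between the single domains the members were nearly balanced. Against NICD2, 15 of the 34 were higher with NICD1, with a median of -0.02 against -0.0037 for all probes. Limma called 0 members (0.00277% of probes) and 0 met the definition of the study (1.26% of probes). At an unadjusted p under 0.05 there was 1, Vnn1, against 3.74% of probes. Vnn1 was higher by 0.51 with NICD1 (SE 0.21, adjusted p = 0.9998), with every NICD1 array above every NICD2 array, as for 4.20% of probes. Echs1 was at -0.20 (adjusted p = 0.9998), with every NICD1 array below every NICD2 array, as for 5.06% of probes.

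Both domains together were also compared with each one alone. Against NICD1, 32 of the 34 members were higher with both domains (63.4% of all probes were), with a median of 0.23 and 0.10 for all probes, and 19 were above on every array, against 21.9% of probes. Against NICD2, 31 were higher (64.2% of probes), with a median of 0.17 and 0.10 for all probes, and 18 were above on every array, against 18.2% of probes. In either comparison 0 members were called, where 0.0139% and 0.00277% of probes were. The counts at an unadjusted p under 0.05 were 7 and 9 members, against 12.4% and 8.90% of probes. The median against NICD2 was 0.11 without NICD2 2 and 0.25 without NICD1&2 1. Within the 2 slides the medians were 0.25 and 0.22 against NICD1 and 0.18 and 0.19 against NICD2. Under quantile normalization they were -0.01 and 0.02 over all arrays. The Kupffer cell and macrophage markers moved the same way, with 5 of 5 higher in either comparison and medians of 0.40 and 0.33, and their part in the values of the members was not tested. Acot1 led both comparisons, and after it came Pex11a against NICD1, at 0.61 (SE 0.18, adjusted p = 0.357), and Acot3 against NICD2, at 1.32 (SE 1.06, adjusted p = 0.654), the latter with NICD2 2 far below the rest. These comparisons share the NICD1&2 arrays. The interaction had a median of 0.21 over members and 0.07 over all probes and was above 0 for 29 of the 34 and for 58.3% of probes. Its median over members was 0.11 without NICD2 2, 0.028 under quantile normalization and 0.0052 with normexp. It was called for 0 members and 0% of probes, with 1 member, Acot1, at an unadjusted p under 0.05 against 7.03% of probes. Among the Kupffer cell and macrophage markers it was above 0 for 5 of 5, with a median of 0.69, and 4 of them had an unadjusted p under 0.05.

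Other genes around the pathway were taken from lists of 118 names. The lipid droplet list held the 1 gene of these lists that was called in a comparison with GFP. Plin5, a coat protein of droplets in oxidative tissues that binds droplets to mitochondria, read 4.65, 4.62 and 4.66 with GFP, 4.75, 5.19 and 5.07 with NICD1, 5.77, 5.41 and 5.68 with NICD2, and 6.10 and 6.12 with NICD1&2. The 4 groups did not overlap and stood in that order. Plin5 rose by 1.47 with both domains (SE 0.15, adjusted p = 0.0126), and it was higher by 0.98 with NICD2 (SE 0.13, adjusted p = 0.0613) and by 0.37 with NICD1 (SE 0.13, adjusted p = 0.884). Within slides the first was 1.47 and 1.47, and over 16 alternatives it lay between 1.29 and 1.5. The NICD2 difference was called with normexp, at 0.95 (adjusted p = 0.00352, where 0.197% of probes were called), and with the filter of all arrays (adjusted p = 0.0253, 0.161% of probes). The adjusted p with both domains was 0.0505 without GFP 1, 0.0603 without GFP 2, 0.178 without NICD1&2 2 (again with 1 array left in that group) and 0.231 when only the 2 groups were fitted. Plin4, a related coat protein, read -1.09, -0.88 and -1.02 with GFP and was higher on all other arrays, by 0.97, 1.34 and 0.95 in the 3 groups (SE 0.25, 0.25 and 0.28, adjusted p from 0.186 to 0.737), the last being 0.61 without NICD1&2 1. In these groups 6.98%, 7.63% and 24.0% of all probes were likewise above every GFP array. Of 15 genes tested in this list 5, 7 and 12 were higher in the 3 groups, with medians of -0.13, -0.01 and 0.23. G0s2, an inhibitor of the lipase of droplets, was at -1.19 with NICD1 (adjusted p = 0.903), with GFP 1 far above the other GFP arrays, and at -0.48 without it.

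Lpin1, which with PPAR-alpha and PGC-1 alpha raises oxidation genes and also makes diacylglycerol, read 2.54, 3.12 and 3.84 with GFP, 3.87, 4.78 and 4.97 with NICD1, 4.92, 5.55 and 5.50 with NICD2, and 5.50 and 5.05 with NICD1&2. No GFP array reached the others, but the gap was narrow, from 3.84 on GFP 3 to 3.87 on NICD1 1. Of all probes 6.98%, 7.63% and 24.0% lay above all GFP arrays in the 3 groups. The differences were 1.37, 2.15 and 2.11 (SE 0.38, 0.38 and 0.43), with adjusted p of 0.752, 0.1495 and 0.129. Of the 14 PPAR partners and cofactors tested 9, 9 and 11 were higher, with medians of 0.04, 0.04 and 0.11. Rxrg, a gene of RXR, went the other way, reading 0.81, 0.81 and 0.47 with GFP and -0.20 and -0.07 with NICD1&2.

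The omega-oxidation enzymes of the Cyp4a family hydroxylate fatty acids in the endoplasmic reticulum, and 5 of their genes were tested. In 3 of them, Cyp4a10, Cyp4a14 and Cyp4a31, which are strong PPAR-alpha targets, 1 control array, GFP 3, enlarged the differences from GFP with NICD1 and with both domains. Those of Cyp4a12a and Cyp4a12b were small, at 0.09 and 0.09 with NICD1 and 0.12 and 0.11 with both, with GFP 3 in the middle of the GFP arrays. Cyp4a10 read 4.37, 4.16 and 2.38 with GFP, 4.28, 4.56 and 4.85 with NICD1, 3.60, 3.42 and 3.39 with NICD2, and 5.14 and 4.46 with NICD1&2. Cyp4a31 read 5.91, 5.72 and 3.92 with GFP, 5.76, 6.07 and 6.43 with NICD1, 5.31, 5.20 and 4.96 with NICD2, and 6.78 and 6.44 with NICD1&2. GFP 3 was lowest for both, and for Cyp4a14, which was not well above background on 1 array. Against GFP, the NICD1 and NICD1&2 differences were 0.93 and 1.16 for Cyp4a10, 1.87 and 1.85 for Cyp4a14 and 0.91 and 1.43 for Cyp4a31, with adjusted p of 0.274 or more. Without GFP 3 they were 0.30 and 0.54, 0.76 and 0.73, and 0.28 and 0.80. Within slide 1, which does not hold GFP 3, the NICD1 differences of the 3 genes were 0.02, 0.0049 and -0.05. Those with both domains were 0.87, 1.24 and 0.96 there, with 1 array in each of these groups. Against NICD2, which does not use the GFP arrays, NICD1 was higher by 1.1, 1.44 and 0.93 (SE 0.46, 0.87 and 0.46), each with an adjusted p of 0.9998, the value of Cyp4a14 being 0.76 with normexp. For all 5 genes, Cyp4a12a and Cyp4a12b included, every NICD1 and NICD1&2 array was above every NICD2 array. Of all probes 4.20% were above NICD2 in this way with NICD1 and 18.2% with NICD1&2. The members of this family also have closely related sequences, and whether their probes bind RNA of their relatives was not tested.

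**Figure D4:**
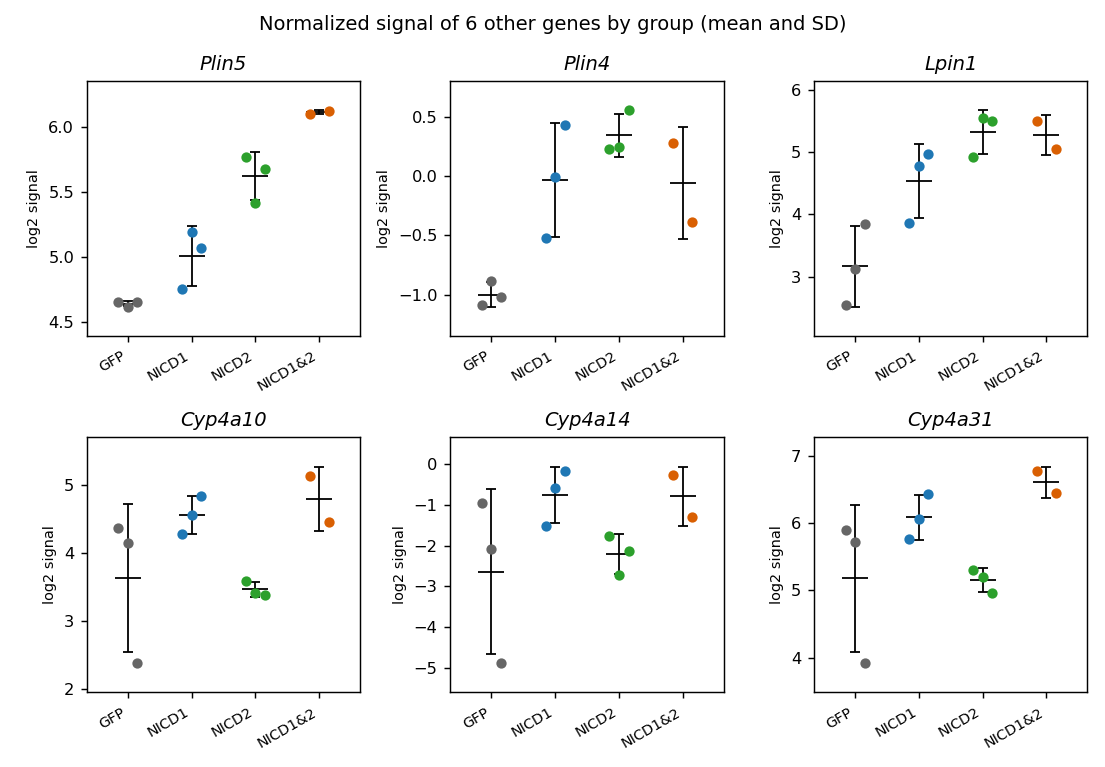
Log2 signal of Plin5, Plin4, Lpin1 and the omega-oxidation genes Cyp4a10, Cyp4a14 and Cyp4a31 by group, each point 1 array, with the mean and SD of the group. Plin5 stands in 4 steps from about 4.65 with GFP to 6.12 with NICD1&2, while for these 3 Cyp4a genes the array GFP 3 (2.38 for Cyp4a10) lies far below the other GFP arrays.

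The lists of further oxidation genes had small medians, while single genes moved either way. With both domains the peroxisomal gene Acot8 read 4.30 and 4.59, against at most 4.04 with GFP. Nudt7, of the same list, read 7.96 and 8.28, against at least 8.45 with GFP. Of 22 peroxisomal genes 7, 9 and 13 were higher with NICD1, NICD2 and both domains (medians -0.05, -0.03 and 0.08), and of 15 further mitochondrial genes 3, 6 and 11 were (medians -0.08, -0.04 and 0.12). Ketogenesis and ketolysis genes, 7 in number, had medians of -0.01, -0.07 and 0.12. Of 12 further genes for fatty acid import and activation 5, 7 and 7 were higher, with medians of -0.03, 0.03 and 0.07. None of these 4 lists held a gene that met the definition of the study in these 3 comparisons, which 2.22%, 1.98% and 6.22% of all probes met.
Of 6 hepatokines and fasting genes 2, 3 and 5 were higher (medians -0.10, 0.18 and 0.12). Among 11 circadian clock genes 5, 7 and 7 were higher (medians -0.01, 0.15 and 0.22), and Ciart was higher by 0.87 with NICD2 and by 0.89 with both domains (adjusted p = 0.225 and 0.152). With normexp these were 0.70 and 0.78 and were called (adjusted p = 0.0368 and 0.0195). With NICD2, Per1 was at 0.86 and Npas2, detected on 2 arrays only, at -0.88 (adjusted p = 0.602 and 0.592). Per1 was at 0.54 without GFP 1, and Npas2 at -0.50 without NICD2 2 and at -0.08 with normexp. Of 7 Notch targets 5 were higher in each group. Nrarp, a feedback inhibitor of the pathway, was at 1.68, 3.53 and 4.14 (adjusted p = 0.839, 0.104 and 0.0723), though it was well above background on only 7 of the 11 arrays. Under normexp, whose offset shrinks fold changes of dim probes, these were 0.16, 0.53 and 0.68 (adjusted p of the last 2 0.0174 and 0.00782). Without GFP 3 the last 2 were 4.22 and 4.83 (adjusted p = 0.0220 and 0.0186). Hes1, a repressor and classic Notch target, was at -0.03, 1.64 and 1.36 (adjusted p = 0.993, 0.421 and 0.282), the last 2 being 0.74 and 0.50 with normexp, and Sox9, which also marks bile ducts, was at 1.16 with both domains (adjusted p = 0.198) and at 0.62 without NICD1&2 1.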

How the data were processed

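The deposited scanner files hold processed signal intensities from Agilent Feature Extraction 11.5.1.1, from which the software had removed background and spatial trends per the file headers. The table deposited by the authors gives log2 signals that were shifted by the 75th percentile of their array. On the 45 probes of the members it matched the scanner values after a constant shift per array. The arrays carry 62976 spots, more than the format named in the methods, which also name another RNA kit than the labels do.

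Spots of a probe were averaged, leaving out control spots and outlier flags, and log2 signals less the array's 75th percentile were used. The filter asked for a signal well above background on 2 or more of 11 arrays, which kept 36055 probes. A linear model with 4 group means was fitted with lmFit and eBayes (limma 3.58.1, R 4.3.3) to the 11 arrays together. The code was tested on simulated data. The number of arrays limits the precision. Of several probes of a gene, the one with the highest mean stands for it. Values of every array are given for members called or meeting the definition of the study, for the 3 highest and 3 lowest members against GFP in each comparison, and for Ppara and Cpt1a. A few other values were chosen after they were seen. The members and lists were chosen with earlier results of these data known. The alternatives were other scalings, background correction, filters, fits of the compared groups only, no moderation, blocks for replicate number or slide, the mean over probes, other thresholds and leaving out each array. The background correction, normexp, added an offset of 50 to the signals, which shrinks the fold changes and the spread of dim probes.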

Additional observations from a re-analysis of the deposited data

How the results depend on the processing

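Most values kept their direction and their side of the threshold, and the exceptions are given here or beside the gene. Under quantile normalization the median of the members with both domains was 0.052 against GFP, -0.010 against NICD1 and 0.023 against NICD2, the interaction median was 0.028, 2 members had an unadjusted p under 0.05, 7 separated from GFP, and Plin2 and Ppara with both domains were at -0.16 and -0.13. With normexp these medians were 0.083 against GFP and 0.034 against NICD1, the interaction median was 0.0052, 1 member was called with both domains (Acot1, adjusted p = 0.0369) as were 354 of 36055 probes in place of 33, 9 members separated, and Plin2 and Ppara were at -0.046 and -0.045. With the percentile over bright probes 13 separated, and Plin2 and Ppara were at -0.059 and -0.035. With no filter on dim probes the median less that of all probes was 0.014, and with a filter of all arrays 1 member, Acot1, was called (adjusted p = 0.0400), with 108 of 27320 probes. Plin5 and Ciart with NICD2 and Ciart and Nrarp with both domains were also called with normexp, and Nrarp with NICD2. With slide as a block Cpt1a was at -0.055 with NICD1. With the mean over probes Ppara was at 0.0062 with NICD2 and Plin2 at -0.027 with both domains. The cause of the other shifts was not tested.

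Leaving out 1 array gave ranges of -0.085 to 0.041 for Ppara with NICD2, -0.48 to 0.067 for Acot4 with NICD2 and -0.050 to 0.072 for Cpt1a with NICD1. With both domains they were -0.088 to 0.16 for Plin2, -0.083 to 0.17 for Ppara, 1 to 2 members meeting the definition of the study, and 4 to 8 members at an unadjusted p under 0.05.

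The labels number the replicates 1 to 3 in each group. Over 15 pairs of arrays with the same number the residuals correlated between -0.41 and 0.17, with a median of 0.04 and 6 pairs over 0.1. Residuals of the 2 or 3 arrays in a group depend on each other, so these values cannot decide whether the numbers pair the samples. With a replicate block the median with both domains was 0.21 against GFP, 0 members were called, and Acot1 had an adjusted p of 0.192. Plin5 with both domains was then at 1.5 (adjusted p = 0.0673). The number of arrays limits the precision of all these values.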
